A study of Mus musculus with 5 samples.

Results

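Fatty acid oxidation shortens fatty acids by pairs of carbon atoms and hands their electrons to the respiratory chain. The set described here holds 32 genes of this pathway that were listed by name, 19 for mitochondria, 11 for peroxisomes and 2 that were held apart, because Eci2 acts in both organelles and Cpt1c lies in the endoplasmic reticulum. For each gene the array feature naming only that gene was used, which gave values for 31 of the 32 genes among 22180 genes in all. Cpt1b was left out because its only feature also names other genes. The study cultured stem and progenitor cells of C57BL/6 mice for 24 h with 5 µM all-trans retinoic acid (ATRA) or with DMSO, its solvent and the control. Hematopoietic stem cells (HSCs), the blood-forming stem cells of the marrow, were then sorted by flow cytometry and their RNA was hybridised to 5 arrays, of which 3 held DMSO and 2 ATRA samples. The deposited values are log2 expression values, and every difference below is ATRA minus DMSO on that scale. In bulk RNA of this kind, fewer cells of a type and less RNA per cell cannot be told apart. The labels do not say whether replicates were separate cultures or animals, and a p-value here therefore speaks only of the spread among these arrays, part of which may be technical.

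Mitochondria take up long-chain fatty acids through a carnitine shuttle and then degrade them in a cycle of dehydrogenation, hydration, another dehydrogenation and thiolytic cleavage. Peroxisomes start on very long and branched chains with an oxidase that passes its electrons to oxygen, and pass the shortened products on to mitochondria. Their enzymes are made in the cytosol and imported by the peroxins. In HSCs, fatty acid oxidation is known for its link to self-renewal and to the way a stem cell divides.

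Promoter sequence was set beside the expression values to show what letters the genes share at their starts. RefSeq windows of 300 bases, 250 before and 50 after the start site (assembly GRCm38.p6), were matched by symbol for 26 of the 32 genes, with 29 windows. The windows were rich in G and C, with a median of 60.7% (range 44.0 to 79.0%) against 52.7% over all 32851 windows. They held a median of 17.0 CpG dinucleotides against 7.0. The windows of Etfdh and Acadm are shown for the motif each holds, and the stretch shared by the windows of Hadha and Hadhb because their start sites lie close together. Capitals mark the palindromic core GCGCATGCGC bound by the respiratory factor NRF1 in Etfdh, at -128 to -119 from the start site, and the nuclear receptor hexamer AGGTCA in Acadm, read on the opposite strand at -249 to -244. The Etfdh window is chr3:79628718-79629017 on the minus strand, the Acadm window chr3:153944594-153944893 on the minus strand, and the Hadha and Hadhb overlap chr5:30155003-30155230, printed on the plus strand, 228 bases long and with no capitals.
Etfdh: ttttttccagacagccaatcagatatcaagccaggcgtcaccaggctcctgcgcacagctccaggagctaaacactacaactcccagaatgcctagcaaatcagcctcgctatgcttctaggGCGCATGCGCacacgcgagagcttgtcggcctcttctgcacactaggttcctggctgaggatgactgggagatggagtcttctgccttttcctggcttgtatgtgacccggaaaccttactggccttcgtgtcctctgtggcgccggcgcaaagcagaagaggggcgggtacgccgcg
Acadm: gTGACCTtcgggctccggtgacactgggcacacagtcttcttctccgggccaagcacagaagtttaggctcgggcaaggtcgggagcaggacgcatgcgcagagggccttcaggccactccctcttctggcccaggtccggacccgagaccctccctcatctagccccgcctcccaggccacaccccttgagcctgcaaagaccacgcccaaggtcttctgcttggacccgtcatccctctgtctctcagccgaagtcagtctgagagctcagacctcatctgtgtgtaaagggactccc
Hadha and Hadhb overlap: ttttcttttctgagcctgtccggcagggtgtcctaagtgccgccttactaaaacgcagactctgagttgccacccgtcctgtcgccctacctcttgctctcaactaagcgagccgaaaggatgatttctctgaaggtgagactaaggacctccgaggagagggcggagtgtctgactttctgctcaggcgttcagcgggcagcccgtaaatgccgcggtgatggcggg

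Both strands were searched for 5 motifs. The NRF1 core was found in 1 of the 29 windows of members, that of Etfdh, and in 0.971% of all windows. The hexamer AGGTCA was found in 6 of 29 windows, those of Acadm, Acadvl, Cpt1a, Cpt1c, Echs1 and Scp2, and in 16.3% of all windows. Of these genes, Acadm and Echs1 passed the test described below as lower in ATRA, and Acadvl, Cpt1a, Cpt1c and Scp2 did not pass. The estrogen-related receptor element TCAAGGTCA, which contains that hexamer, was in 0 of 29 windows and in 0.423% of all. Pairs of AGGTCA in the same direction spaced by 1 base, the arrangement bound by PPAR with RXR, or by 5 bases, the arrangement bound by retinoic acid receptors, were in 0 of 29 windows and in 0.0396% and 0.00913% of all. A match or its lack describes only the letters of these windows.

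Values were more compressed in the ATRA arrays, with an SD over all features of 1.77 and 1.49 against 1.96 to 1.97 in DMSO, and brighter features had lower values in both ATRA arrays. It is not known whether the 5 deposited columns were normalized together, which bears on every deposited difference. Differences are given as deposited, and most also with this trend on the DMSO level removed from each array. Of 9 measured markers on the HSC list 0 rose and 5 fell, which were Kit, Hlf, Mecom, Fgd5 and Flt3. Over all genes 6.48% were called higher and 15.5% lower. The list also holds Cd34, Flt3 and Cd48, which mark progenitors more than HSCs, so it does not describe HSCs alone. The mean value of the 9 markers was 8.27 to 8.47 in the DMSO arrays and 7.39 and 6.62 in ATRA replicates 1 and 2. Their median difference was -1.33 as deposited and -0.50 with the level trend removed, where 0 of the 9 were called. Among 48 measured markers of the other marrow cells, S100a9, Cx3cr1, Cd3g and Cdh5 rose and Itga2b fell. The mean of the 9 neutrophil markers was 5.63 to 6.02 in DMSO and 6.22 and 6.07 in ATRA, and that of the 7 monocyte and macrophage markers 6.09 to 6.17 and then 6.49 and 6.36. The mean went from 5.61 to 5.76 in DMSO to 6.08 and 6.39 in ATRA for the 7 T and NK cell markers, from 4.51 to 4.79 to 5.18 and 5.23 for the 5 mast cell and basophil markers, and from 6.24 to 6.32 to 6.57 and 6.73 for the 7 markers of stroma and endothelium. After trend removal the median difference was -0.16 for the neutrophil, -0.05 for the monocyte and macrophage, 0.24 for the T and NK cell, -0.02 for the mast cell and basophil and 0.41 for the stroma and endothelium markers. For the megakaryocyte, erythroid and B cell markers it was 0.21, 0.04 and -0.12. The part of these shifts in the values below was not tested.

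Setting ATRA beside DMSO shows which transcripts of the pathway differ in cultured HSCs given retinoic acid. Most fatty acid oxidation genes had lower values with ATRA, and 13 of 31 passed the test as lower, among them 4 of 5 acyl-CoA dehydrogenases, 2 of 3 electron transfer genes, and Hsd17b4 and Pex19 of the peroxisome. No member passed as higher. The calls are those of limma at an adjusted p of 0.05, with Benjamini-Hochberg adjustment over all 22180 genes, of which 15.5% were called lower and 6.48% higher (3428 and 1437 genes, or 4542 and 560 when each array was centred on its median, which moved the median of all genes from 0.16 to -0.11). The median difference of the members was -1.06, against 0.16 over all genes. The members also had higher DMSO values, with a median of 7.97 against 6.20 over all genes. For features at the members' levels the trend of all genes gave a median difference of -0.9985. The shares of all genes given in this paragraph are not matched for level. Both ATRA values lay below all 3 DMSO values in 22 of 31 members, as in 29.2% of all genes, and above them in 0 members, as in 33.0% of all genes. The other 9 members overlapped. The difference was negative in 30 of 31 members as deposited, in 31 with centring and in 28 after repeated quantile normalization. It was negative in 22 members after cyclic loess normalization, which evens out level trends between arrays, and in 18 with the level trend removed. Among all 22180 genes, 9298 had a negative difference as deposited, 10621 once the level trend was taken out and 12037 under cyclic loess.

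**Figure D1:**
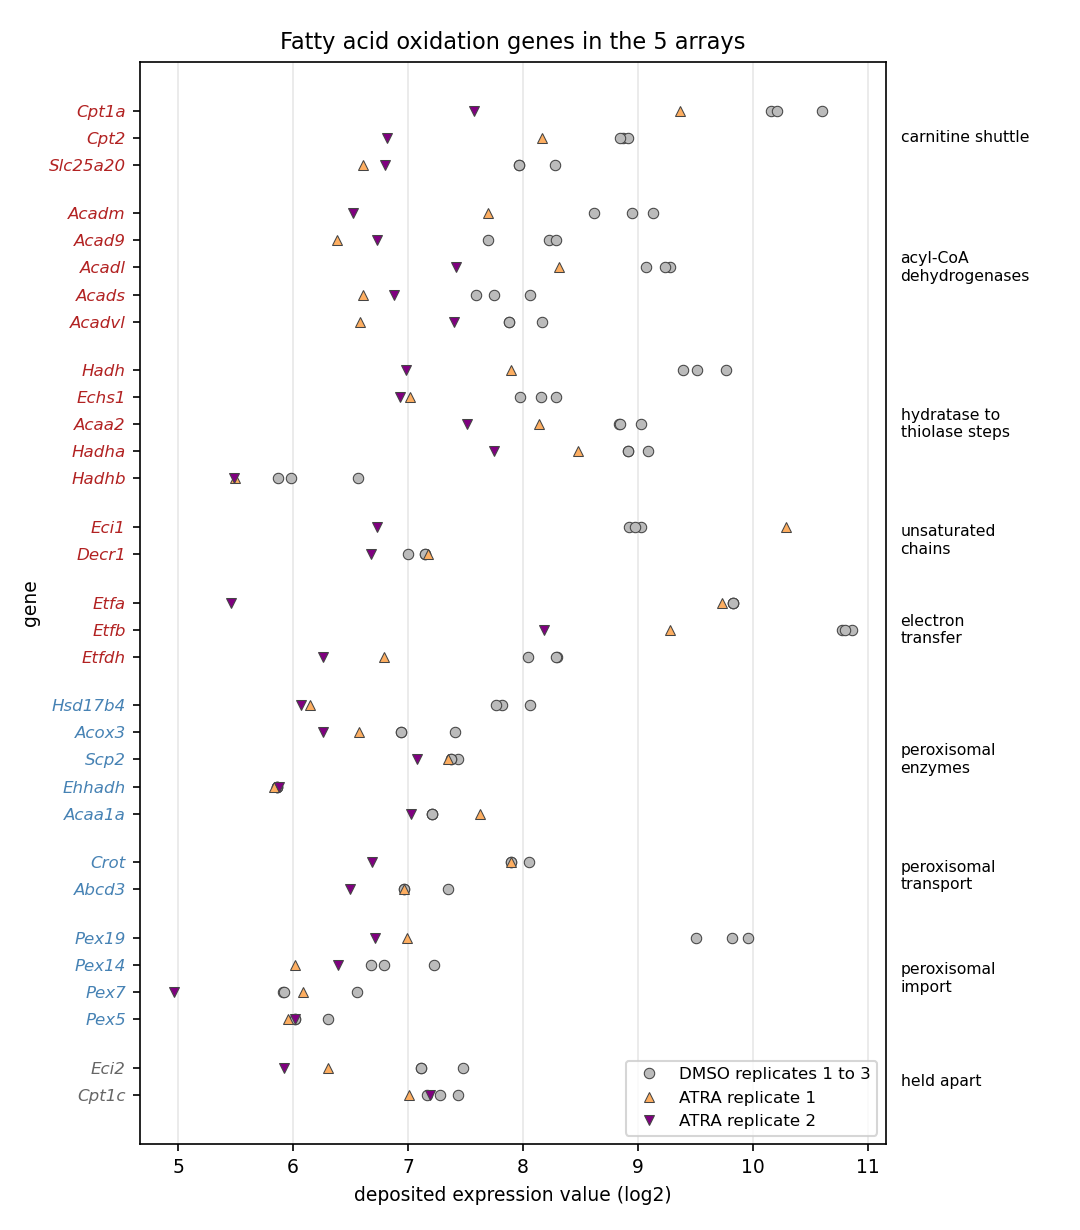
Deposited log2 value (horizontal axis) of each of the 31 measured genes (vertical axis, grouped by role) in each array. Grey circles are the 3 DMSO arrays, upward triangles ATRA replicate 1 and downward triangles ATRA replicate 2. Both triangles lie left of all circles in 22 genes, and those of Etfa and Eci1 lie more than 3 apart.

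The count of calls moved with the arrays used and with the expression level. Without ATRA replicate 1, 21 members were called lower, as were 30.6% of all genes, with 33.5% higher. Without ATRA replicate 2, 11 members were called lower and 2 higher, beside 21.3% and 13.3% of all genes. In both fits the lone ATRA array was assumed to vary like the DMSO arrays. With any of the 3 DMSO arrays left out, limma called 0 members (14, 13 and 14 at an unadjusted p under 0.05 without replicate 1, 2 and 3) and also 0 of all 22180 genes (5991, 6065 and 5907 at an unadjusted p under 0.05). The differences themselves moved little, with a median over the members of -1.088, -1.031 and -1.003 against -1.060. Estimated array weights likewise gave 0 called members and 0 called genes in limma (10 members and 4377 genes at an unadjusted p under 0.05). Limma also called 0 members once the level trend was removed, where 1.01% of all genes were called lower and 2.28% higher. At an unadjusted p under 0.05 in that limma fit, the counts were 10 members and 5078 of all 22180 genes. The median of the members was then -0.10 against 0.02 over all genes.

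Within the carnitine shuttle, Slc25a20 fell and the carnitine palmitoyltransferases did not pass. Slc25a20, which exchanges acylcarnitine for carnitine across the inner membrane, had values of 8.28, 7.96 and 7.96 in DMSO and 6.61 and 6.80 in ATRA. Its groups did not overlap and its ATRA arrays were alike, for a difference of -1.37 (SE 0.16, adjusted p = 0.012), 2.58-fold lower. Cpt1a, the rate-controlling enzyme of the outer membrane that malonyl-CoA inhibits, had 10.16, 10.60 and 10.21 in DMSO and 9.36 and 7.58 in ATRA. Both ATRA values were below the control values but 1.79 apart, and the difference of -1.85 (SE 0.57) did not pass (adjusted p = 0.0842). Cpt2, which restores acyl-CoA inside the inner membrane, had 8.87, 8.91 and 8.84 in DMSO and 8.17 and 6.82 in ATRA, again with ATRA replicate 2 the lowest and no call (-1.38, adjusted p = 0.0833). Without the level trend the values became 0.52 for Cpt1a, 0.22 for Cpt2 and -0.30 for Slc25a20, so those of both transferases changed sign. Cpt1c, the isoform of the endoplasmic reticulum best known from neurons, had 7.28, 7.17 and 7.44 in DMSO and 7.01 and 7.19 in ATRA, with overlapping groups (-0.20, adjusted p = 0.311).

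The acyl-CoA dehydrogenases catalyse the first step of each round and divide the work by chain length. Acadm, the medium-chain enzyme, had 9.14, 8.62 and 8.95 in DMSO and 7.70 and 6.52 in ATRA, a log2 difference of -1.79 (SE 0.40, adjusted p = 0.044), with ATRA replicate 2 the lower array by 1.18. The long-chain enzyme Acadl went from 9.28, 9.07 and 9.24 to 8.32 and 7.42 (-1.33, adjusted p = 0.0435). The short-chain enzyme Acads went from 7.75, 7.60 and 8.06 to 6.61 and 6.87 (-1.06, adjusted p = 0.0289). In none of these genes did the groups overlap. Acad9, which also helps to assemble respiratory complex I, had 8.22, 7.69 and 8.29 in DMSO and 6.38 and 6.73 in ATRA (-1.51, adjusted p = 0.0224), so its lowest array was ATRA replicate 1. Acadvl, the very-long-chain enzyme of the inner membrane, had 8.16, 7.88 and 7.88 and then 6.58 and 7.40, a difference of -0.98 that did not pass (adjusted p = 0.0757) although the groups were apart. With the level trend removed the differences of these 5 genes ran from -0.45 for Acad9 to 0.47 for Acadl and none passed.

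The next steps are carried out by the trifunctional protein for long chains and by separate enzymes for shorter ones. Hadh, the hydroxyacyl-CoA dehydrogenase for medium and short chains, had 9.40, 9.52 and 9.77 in DMSO and 7.90 and 6.99 in ATRA, which is 4.34-fold lower (-2.12, SE 0.32, adjusted p = 0.0186). Echs1, the short-chain enoyl-CoA hydratase, went from 7.97, 8.16 and 8.28 to 7.02 and 6.93 (-1.16, adjusted p = 0.0129), and its ATRA arrays were 0.09 apart. Acaa2, the mitochondrial thiolase, went from 8.84, 9.03 and 8.84 to 8.14 and 7.52 (-1.07, adjusted p = 0.0378). These 3 genes fell, with no overlap of the groups. At their DMSO levels the trend of all genes stood at -2.00, -1.12 and -1.62, and with it removed the differences were -0.12 for Hadh, -0.05 for Echs1 and 0.55 for Acaa2.

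Hadha and Hadhb encode the subunits of the trifunctional protein and lie head to head on chromosome 5, with RefSeq start sites 273 bases apart. The printed stretch lies between these sites, before the start of both genes, and includes neither start site. Hadha, the alpha subunit, had 8.91, 8.91 and 9.09 in DMSO and 8.48 and 7.75 in ATRA (-0.86, SE 0.25, adjusted p = 0.0759). Hadhb, the beta subunit with the thiolase activity, had 6.56, 5.98 and 5.87 in DMSO and 5.49 and 5.48 in ATRA (-0.65, SE 0.25, adjusted p = 0.128). Neither passed, and in both genes the ATRA values lay below all DMSO values. With the level trend removed the pair parted, to 0.80 for Hadha (adjusted p = 0.0651) and -0.92 for Hadhb (adjusted p = 0.148), with both ATRA arrays above the trend for Hadha (0.67 and 0.94) and below it for Hadhb (-0.79 and -1.04). The DMSO mean was 8.97 for Hadha and 6.14 for Hadhb, the latter near the 6.03 median of all features. The trend subtracted was -1.66 for Hadha and 0.27 for Hadhb. The difference between the genes was not tested.

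Of the enzymes for unsaturated chains, Eci2 fell and the mitochondrial Eci1 and Decr1 did not pass. Eci1, the enoyl-CoA isomerase of mitochondria, had 8.92, 9.03 and 8.98 in DMSO, 10.29 in ATRA replicate 1 and 6.73 in replicate 2. The arrays of ATRA thus lay on opposite sides of the tightly grouped controls, and the mean difference of -0.47 (SE 1.09, adjusted p = 0.735) describes neither. Without ATRA replicate 2 the difference was 1.31. Decr1, the dienoyl-CoA reductase, had 7.00, 7.15 and 7.15 in DMSO and 7.18 and 6.68 in ATRA (-0.17, adjusted p = 0.477). Eci2, the isomerase found in both organelles, had 7.12, 7.12 and 7.48 in DMSO and 6.31 and 5.92 in ATRA, and it fell (-1.12, SE 0.20, adjusted p = 0.0273). It was still called (adjusted p = 0.0403) with cyclic loess normalization, and was -0.68 with the level trend removed (adjusted p = 0.118).

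The electron transfer flavoprotein collects electrons from the dehydrogenases and its oxidoreductase passes them to ubiquinone. Etfb, the beta subunit, had 10.78, 10.86 and 10.80 in DMSO and 9.28 and 8.18 in ATRA, and fell by 2.09 (SE 0.35, adjusted p = 0.0237), 4.24-fold lower. Etfdh, the oxidoreductase, had 8.30, 8.04 and 8.29 in DMSO and 6.79 and 6.26 in ATRA, and fell by 1.68 (SE 0.21, adjusted p = 0.0133). Both were apart from the controls, yet with the level trend removed Etfb stood at 0.52 and Etfdh at -0.52 (adjusted p = 0.331 and 0.124). Etfdh was the only mitochondrial gene still called after cyclic loess normalization (adjusted p = 0.0218). Etfa, the alpha subunit, had the value 9.83 in all 3 DMSO arrays, 9.73 in ATRA replicate 1 and 5.46 in replicate 2. Its fitted difference of -2.23 (SE 1.30, adjusted p = 0.242) rests on replicate 2, which lay 4.27 below replicate 1, the widest gap between the ATRA arrays among the members.

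Of the 5 peroxisomal oxidation enzymes among the members, Hsd17b4 fell and the other 4 did not pass. Hsd17b4, the D-bifunctional protein that hydrates and oxidises very long and branched chains, had 8.07, 7.82 and 7.77 in DMSO and 6.15 and 6.07 in ATRA. The ATRA arrays were 0.08 apart and both below the controls, for a difference of -1.78 (SE 0.15, adjusted p = 0.00739), 3.42-fold lower. With cyclic loess normalization it was still called (-1.38, adjusted p = 0.0121), and without the level trend it was -0.84 (adjusted p = 0.0756). Acox3, an oxidase of branched chains, had 7.41, 6.94 and 6.94 in DMSO and 6.58 and 6.26 in ATRA, apart from the controls but without a call (-0.68, adjusted p = 0.0917). Scp2, whose gene encodes the peroxisomal thiolase SCPx and a sterol carrier, had 7.43, 7.38 and 7.38 and then 7.35 and 7.07 (-0.18, adjusted p = 0.317). Acaa1a, the other peroxisomal thiolase, had 7.21 in all 3 DMSO arrays and 7.63 and 7.02 in ATRA, and was the only member with a positive difference (0.12, adjusted p = 0.659), which centring turned to -0.15. Ehhadh, the L-bifunctional enzyme, had 5.86 in all 3 DMSO arrays and 5.83 and 5.87 in ATRA, a difference of -0.004 (adjusted p = 0.979). Without the trend these 4 genes stood at -0.34 for Acox3, 0.38 for Scp2, 0.54 for Acaa1a and -0.36 for Ehhadh, with adjusted p from 0.162 to 0.36.

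The members Abcd3 and Crot, which serve transport into and out of the peroxisome, did not pass. Abcd3, the PMP70 transporter of long-chain acyl-CoA, had 6.96, 7.35 and 6.96 in DMSO and 6.97 and 6.49 in ATRA (-0.36, adjusted p = 0.255). Crot, the carnitine octanoyltransferase that readies shortened chains for mitochondria, had 7.90, 7.90 and 8.06 in DMSO and 7.90 and 6.68 in ATRA (-0.66, adjusted p = 0.244). In both genes ATRA replicate 1 lay among the controls and only replicate 2 below them. Abcd3 without the trend stood at -0.03 and Crot at 0.32 (adjusted p = 0.943 and 0.471).

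Of the 4 import factors Pex19 fell and the other 3 did not pass. Pex19, the cytosolic chaperone that delivers membrane proteins to the peroxisome, had 9.96, 9.51 and 9.82 in DMSO and 6.99 and 6.71 in ATRA. That is 7.51-fold lower (-2.91, SE 0.20, adjusted p = 0.00672), the largest difference among the 31 genes and the one with the smallest adjusted p, with no overlap of the groups. Cyclic loess normalization gave -1.50 (adjusted p = 0.0405) and removal of the level trend -0.81 (adjusted p = 0.256), with -1.37 in ATRA replicate 1 and -0.25 in replicate 2. Pex14, part of the docking complex, had 7.22, 6.79 and 6.68 in DMSO and 6.02 and 6.39 in ATRA (-0.69, adjusted p = 0.101). Pex7, the import receptor for the signal near the start of a protein, had 6.56, 5.91 and 5.92 in DMSO and 6.09 and 4.97 in ATRA (-0.60, adjusted p = 0.292). Pex5, the receptor for the signal at its end, had 6.31, 6.01 and 6.01 in DMSO and 5.95 and 6.01 in ATRA (-0.13, adjusted p = 0.494). The 3 genes without a call thus ranged from no overlap for Pex14 to overlap in 1 ATRA array for Pex7 and in 1 for Pex5. Trend removal left them at -0.51 for Pex14, -0.87 for Pex7 and -0.41 for Pex5, and none passed.

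**Figure D2:**
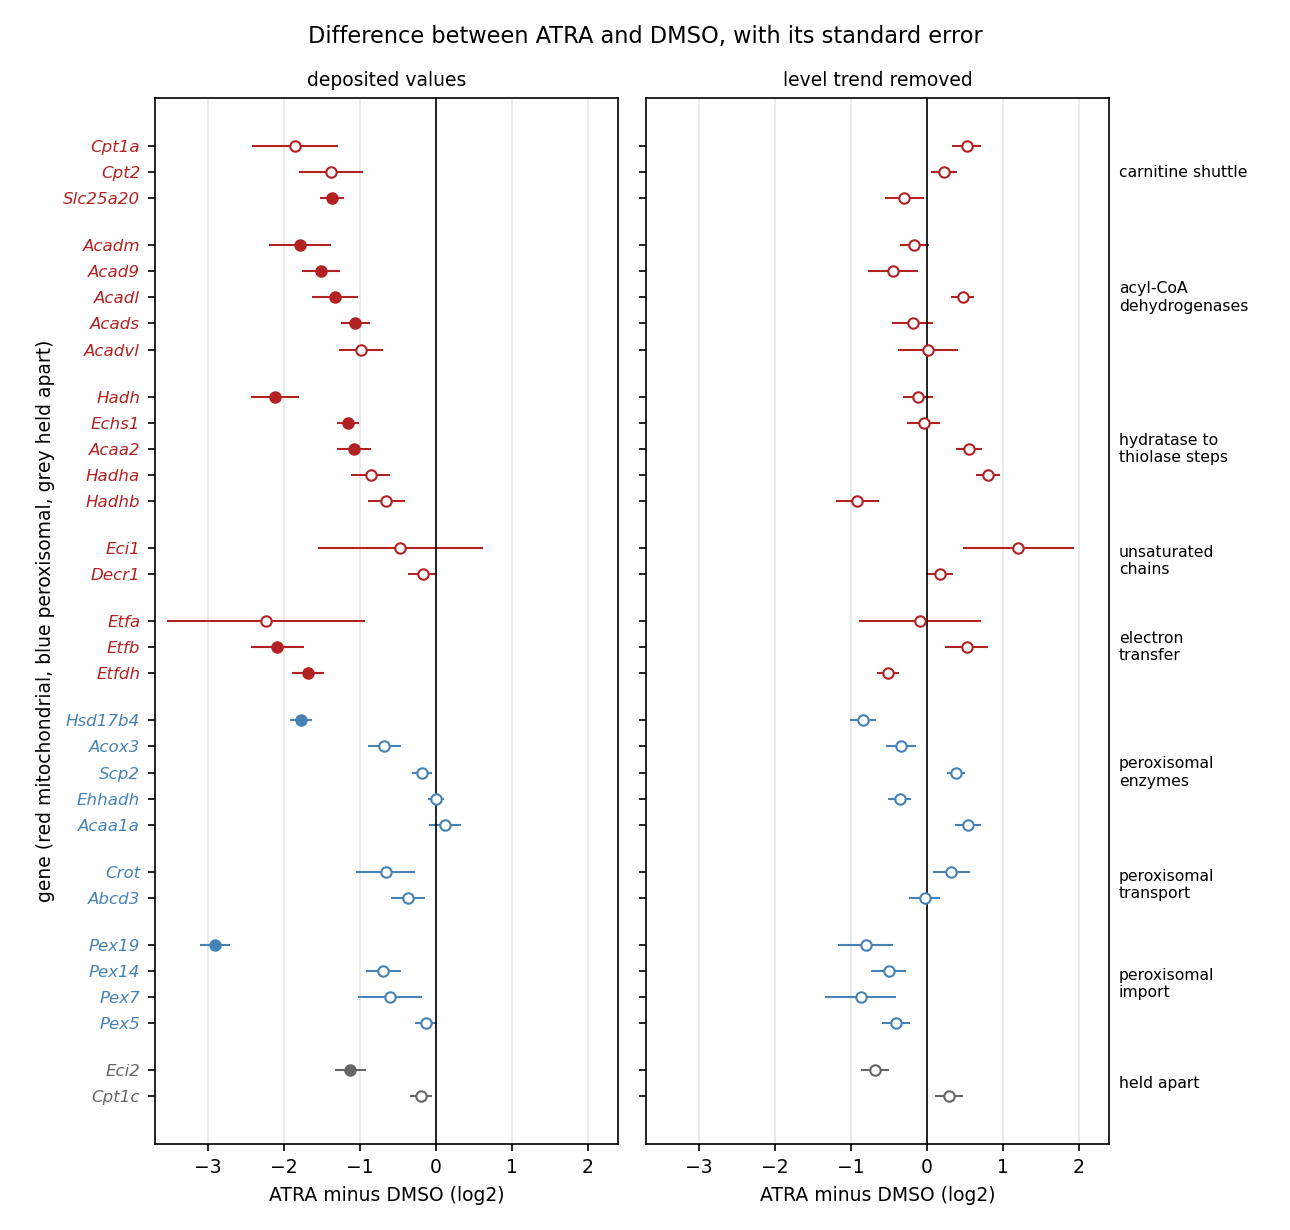
Difference ATRA minus DMSO (log2, horizontal axis) of each gene with its standard error, from limma on the deposited values (left) and with the level trend removed (right). Filled points passed an adjusted p of 0.05, 13 on the left and 0 on the right, and 30 of 31 points lie below 0 on the left but 18 on the right.

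Equal values recur among these genes. In Etfa, Acaa1a and Ehhadh the 3 DMSO values were the same to the last deposited digit, as in 6.47% of all genes, and in 10 members exactly 2 of the 3 were, as in 33.5% of all genes. The DMSO SD of the members ran from 0 to 0.37, with a median of 0.16. ATRA replicate 2 was the lower of the ATRA arrays in 23 of 31 members, and the arrays differed by more than 1 in 8. At DMSO levels of 7.0 and above the median of all genes was also lower in replicate 2. At levels of 8.0 to 8.5, for example, it was -1.53 in replicate 2 against -0.89 in replicate 1.

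The mitochondrial genes had the lower median difference in the deposited values, and the order of the classes turned when the level trend was removed. Of the 18 mitochondrial genes 10 fell and 0 rose (55.6%), and of the 11 peroxisomal genes 2 fell and 0 rose (18.2%), beside the 15.5% of all genes called lower. Groups were apart, with ATRA lower, in 16 of 18 mitochondrial and in 5 of 11 peroxisomal genes, beside 29.2% of all genes. The median difference was -1.35 for mitochondrial and -0.60 for peroxisomal genes. In ATRA replicate 1 alone these medians were -1.04 and -0.12, and in replicate 2 -1.58 and -0.60. The mitochondrial features also had higher values in DMSO, with a median of 8.89 against 7.10, and such values depend on the probes as well as on the transcripts. For features at these levels the trend of all genes gave a median difference of -1.61 for the mitochondrial and -0.34 for the peroxisomal genes.

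**Figure D3:**
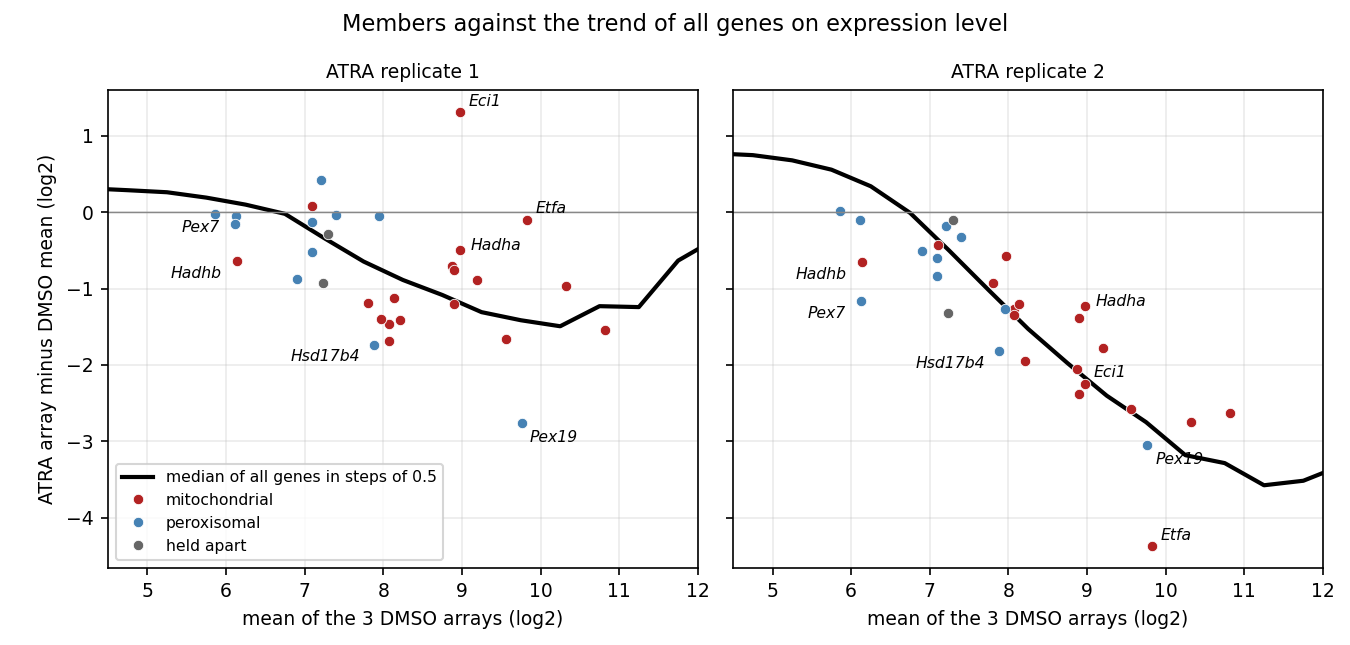
Difference of each ATRA array from the DMSO mean (log2, vertical axis) against the DMSO mean (log2, horizontal axis). The black line is the median of all genes in steps of 0.5, and points are mitochondrial (red), peroxisomal (blue) and held-apart (grey) members. Hsd17b4, Hadhb and Pex7 lie below the line and Hadha above it in both arrays, Etfa lies above it in replicate 1 and below it in replicate 2, and Eci1 lies above it in replicate 1 and close to it in replicate 2.

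With the level trend removed, the median was -0.02 for mitochondrial and -0.36 for peroxisomal genes, and after cyclic loess normalization -0.29 and -0.51. The mitochondrial median minus the peroxisomal median was thus -0.74 as deposited, 0.35 with the trend removed and 0.22 after cyclic loess normalization. As deposited, this value was -0.91 and -0.98 in the ATRA arrays and -0.20 to 0.12 in the DMSO arrays, and with the trend removed it was 0.24 and 0.37 against -0.19 to 0.13. After trend removal both ATRA arrays lay below the DMSO mean in 7 of 11 peroxisomal genes, which are Acox3, Hsd17b4, Ehhadh and the 4 import factors, and in 4 of 18 mitochondrial genes, which are Acadm, Acad9, Hadhb and Etfdh. Ehhadh, Pex5 and Pex7 had DMSO means of 5.86, 6.11 and 6.13, near the 6.03 median of all features. The trend subtracted at their levels was positive, at 0.36, 0.28 and 0.27, and their deposited differences were -0.004, -0.13 and -0.60. Both ATRA arrays lay above the DMSO mean after trend removal in Acaa1a and Scp2 of the peroxisome and in 6 mitochondrial genes, Cpt1a, Cpt2, Acadl, Hadha, Acaa2 and Etfb. The share of all genes with both ATRA arrays on the same side was not counted, so these counts have no background beside them. After cyclic loess normalization, where 6.78% of all genes were called lower, 4 members were called, Etfdh, Eci2, Hsd17b4 and Pex19. The classes were compared as a description with no p, because the genes are not replicates of the treatment.

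**Figure D4:**
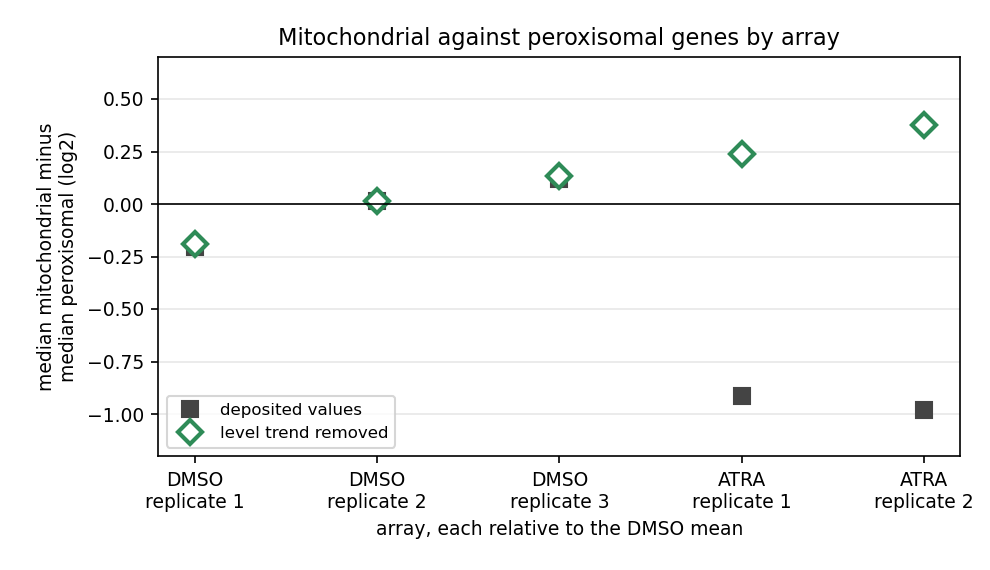
Median mitochondrial minus median peroxisomal difference from the DMSO mean (log2, vertical axis) in each of the 5 arrays (horizontal axis). Squares are deposited values and diamonds have the level trend removed. The ATRA squares lie at -0.91 and -0.98, and both ATRA diamonds lie above 0 and above all DMSO diamonds.

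Other genes of the pathway were read from 5 lists, in which 23 of 94 measured genes fell (24.5%, against 15.5% of all genes) and 2 rose. Of 17 genes measured for fatty acid uptake and activation 1 rose and 4 fell. Acsl4, the acyl-CoA synthetase that prefers arachidonic acid, had 8.44, 8.18 and 8.13 in DMSO and 6.20 and 5.60 in ATRA (-2.35, adjusted p = 0.00898). With the level trend removed it was -1.15 (adjusted p = 0.0284). It was the only gene of these 5 lists to pass there as lower, as did 1.01% of all genes. The fatty acid transport proteins Slc27a1 (-1.46, and -0.69 with the trend removed) and Slc27a4 (-1.28 and -0.57) fell, and Fabp4, a fatty acid binding protein best known from fat cells and macrophages, rose by 1.84 (adjusted p = 0.0229), from 5.49, 4.70 and 5.18 to 6.72 and 7.21. With the trend removed Fabp4 stood at 1.35 and did not pass (adjusted p = 0.0786). Its DMSO mean of 5.12 was below the 6.03 median of all features. Of 23 regulators of the pathway 1 rose and 5 fell, among them the coactivator gene Pprc1 (-1.65, adjusted p = 0.00747), Gabpa, a factor of nuclear genes for mitochondria (-1.23), and Pml (-1.74), while the nuclear receptor gene Nr2f1 rose by 0.58 (adjusted p = 0.039). None of these 4 passed with the level trend removed, and Pprc1 stood at 0.05 (adjusted p = 0.929), Pml at 0.35, Gabpa at -0.76 and Nr2f1 at 0.24.

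Of 22 other mitochondrial acyl-CoA enzymes 0 rose and 6 fell. They included Hsd17b10, a short-chain dehydrogenase (-1.30, adjusted p = 0.0136), Acat1, the acetoacetyl-CoA thiolase (-1.75), and Pcca and Pccb, the propionyl-CoA carboxylase subunits (-1.08 and -1.16). Hsd17b10 turned under trend removal to 0.50, Pcca to 0.07 and Pccb to 0.29, and Acat1 was -0.09. Of 22 other peroxisomal enzymes and transporters 0 rose and 6 fell, among them Slc25a17, a carrier of cofactors in the peroxisomal membrane, with 8.65, 8.40 and 8.33 in DMSO and 6.52 and 6.19 in ATRA (-2.11, adjusted p = 0.00759). Decr2, the peroxisomal dienoyl-CoA reductase, fell (-1.50), as did Gnpat, an enzyme of ether lipid synthesis (-1.23), and the membrane protein gene Pxmp4 (-0.80). Removal of the level trend gave -0.77 for Slc25a17, -0.49 for Decr2, 0.13 for Gnpat and -0.04 for Pxmp4. Of 10 other peroxins 0 rose and 2 fell, Pex3, the membrane anchor that receives Pex19 (-1.18, adjusted p = 0.0137), and Pex16 (-0.81, adjusted p = 0.0469), which turned to 0.22 and 0.25 with the level trend removed. The medians of the 5 lists were -0.12, -0.02, -0.46, -0.31 and -0.11 in the order given, against 0.16 for all genes, and -0.25, -0.01, 0.25, 0.07 and 0.23 with the level trend removed. In that fit Acsl4 was called lower, and Mcee, the methylmalonyl-CoA epimerase, named after its values were seen, was called higher (1.66, adjusted p = 0.0169). Over all genes 1.01% were called lower there and 2.28% higher.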

How the data were processed

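RNA of sorted HSCs was measured on 5 arrays, 3 for DMSO and 2 for ATRA, grouped and numbered by the sample titles. The authors deposited log2 expression values, 1 per feature and array, and the submitters' processing notes list RMA, oligo 1.36.1 and limma 3.28.20 without saying what each did. Their genome build and array annotation were not stated in the labels. Per the labels' protocols, RNA came from a kit for small samples and was labelled by in vitro transcription, and the sort followed treatment, so cells that left the gate were not measured.

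The deposited values entered the analysis unfiltered. Features were named through the platform annotation, updated by gene identifier, and of 41345 features 23521 named 1 gene. The brightest such feature over all 5 arrays stood for a gene. Each member measured had 1 such feature. ATRA was compared with DMSO by limma 3.58.1 (R 4.3.3), a two-sided test on 2 group means with lmFit and eBayes, with 3 residual degrees of freedom, a prior worth 1.52 and Benjamini-Hochberg adjustment over 22180 genes. Every adjusted p is from a limma test of this kind. Those given with the level trend removed or after cyclic loess normalization come from separate fits to the changed values. The script was tested on simulated data. To remove the level trend, a loess curve (span 0.3) of each array's difference from the DMSO mean against that mean was subtracted. This also takes out real change that follows expression level, and since DMSO noise enters both axes it can shift single genes. The number of arrays limits the precision, and an exact two-sided permutation test of 3 against 2 arrays cannot go below 0.1.

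The members, lists, compartments and alternatives were chosen with earlier results of these data known. Named genes are all 31 measured members and, of each other list of the pathway, up to 4 called genes with the smallest p. Alternatives left out single arrays, added a replicate block, left out dim genes, renormalized or centred the arrays, changed the variance model or threshold, averaged features and regrouped the classes. A planned look at protein targeting signals was not run, and protein sequences were not used here. The search for the single AGGTCA hexamer was added to the planned motifs afterwards.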

Additional observations from a re-analysis of the deposited data

How the results depend on the processing

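With limma there were 0 members called when any single DMSO array was left out, with array weights and with the replicate block, settings with 0 calls over all genes too, and with the level trend removed. Without 1 array, 0 to 21 members and 0 to 14207 of all genes were called, against 13 and 4865. Counts of members were 8 after repeated quantile normalization and 4 after cyclic loess normalization. Counts over all genes were 2182 and 2275 there, 728 with the level trend removed, 7755 at an adjusted p under 0.1, and 0 with array weights (4377 at an unadjusted p under 0.05). The replicate block also gave 0 of all genes (limma, 5412 genes and 14 members at an unadjusted p under 0.05). The 2 shared replicate numbers gave correlations of deviations of 0.13 and 0.10, too few pairs to show that the numbers pair cultures. Centring, the intensity trend with robust prior, leaving out dim genes (which dropped Ehhadh) and averaging features kept both counts within 1.5 times. The first 2 of these gave 16 and 11 members, and the other 2 gave 13.

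The mitochondrial minus peroxisomal median of -0.74 ran from -0.98 to -0.69 without 1 array. It was -0.53 after quantile normalization, -0.61 with means in place of medians and -0.99 without the import factors, and turned to 0.35 without the level trend and 0.22 after cyclic loess normalization.

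With the level trend removed, 12 members changed sign, to 0.52 for Cpt1a, 0.29 for Cpt1c, 0.22 for Cpt2, 0.47 for Acadl, 0.015 for Acadvl, 0.80 for Hadha, 1.20 for Eci1, 0.16 for Decr1, 0.55 for Acaa2, 0.52 for Etfb, 0.38 for Scp2 and 0.32 for Crot. After cyclic loess normalization 8 did, to 0.24 for Cpt1c, 0.11 for Acadl, 0.56 for Hadha, 1.03 for Eci1, 0.10 for Decr1, 0.27 for Acaa2, 0.34 for Scp2 and 0.17 for Crot. Repeated quantile normalization turned Cpt1c (0.18) and Scp2 (0.21), and centring turned Acaa1a (-0.15). Without 1 array, Eci1 ran from -2.25 to 1.31, Decr1 from -0.42 to 0.077, Acaa1a from -0.18 to 0.42 and Ehhadh from -0.026 to 0.017. The cause of these changes was not tested.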
